A study of Homo sapiens with 132 samples.

Results

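TGM1 and TGM2 code for transglutaminases, enzymes that join proteins by bonds between glutamine and lysine side chains. TGM1, the keratinocyte transglutaminase, is anchored at the cell membrane and cross-links the proteins of the cornified envelope of stratified epithelia. TGM2, the tissue transglutaminase, is found inside and outside cells, binds GTP, cross-links extracellular matrix proteins and is known for its induction by retinoic acid. Both genes were found by their Ensembl identifiers in every library, and they make up 2 of the 65217 gene identifiers in the count tables. They were selected on their measured values in these libraries, among them their response to afatinib, so that their levels and differences are given here as a description without a test. RNA came from cultures of 4 established gastric cancer lines. MKN1 and Hs746T cells received no treatment or EGF (5 ng/ml, a ligand of EGFR), the EGFR antibody cetuximab (1 µg/ml), EGF + cetuximab, the HER2 antibody trastuzumab (5 µg/ml), the EGFR and HER2 kinase inhibitor afatinib (0.5 µM) or trastuzumab + afatinib. For MKN7 and NCI-N87 cells the treatments were trastuzumab, afatinib and the combination of both, beside untreated cells. Cells were collected after 4 h or 24 h, with 3 replicates in each of 44 conditions and 132 libraries in all. Nothing in the labels says that replicates came from separate cultures, so that adjusted p-values measure only the spread between these libraries. A solvent control for afatinib was not analysed here.

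TGM1 (ENSG00000092295) lies on the minus strand of chromosome 14 from 24249114 to 24264432 of GRCh38, and TGM2 (ENSG00000198959) lies on the minus strand of chromosome 20 from 38127387 to 38166578. The part of the coding sequence that holds the catalytic cysteine is shown for both genes, because it is the feature that makes them members of one enzyme family and because near-identical sequence would let reads be shared between them. The capitals mark the codon of the catalytic cysteine, codon 377 of the longest open reading frame in transcript TGM1-201 and codon 277 in TGM2-201. The stretches lie in exon 7 of 15 of TGM1 (chr14:24259076-24259132) and in exon 6 of 13 of TGM2 (chr20:38146718-38146774), and are given from 5′ to 3′ on the minus strand as in GENCODE release 29.
TGM1: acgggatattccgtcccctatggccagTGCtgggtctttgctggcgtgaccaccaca
TGM2: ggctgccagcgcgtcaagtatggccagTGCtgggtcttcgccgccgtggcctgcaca
Of these 57 bases, 39 were identical in the 2 genes. Over their whole transcripts, TGM1 and TGM2 had 0 stretches of 31 bases in common. Of the distinct stretches of 31 bases in TGM2 transcripts, 1.57% were also found in transcripts of other genes, and of those in TGM1 transcripts 0. The 3′ end of TGM2 overlaps that of RPRD1B on the opposite strand by 394 bases, and whether the counting used the strand is not given in the sources used here.

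Total counts per library ran from 25832557 to 69434151. Levels are given as CPM (the count of a gene scaled to the total count of its library). A floor of 3 counts was 0.0432 CPM in the deepest and 0.116 CPM in the shallowest library, which covers counting error only. All 6 epithelial markers that were looked up had a mean above 1 CPM in each line, but CDH1 (E-cadherin) was low in MKN1 (0.702 to 7.01 CPM) and Hs746T cells (0.398 to 6.39 CPM) and high in MKN7 (189 to 284 CPM) and NCI-N87 cells (188 to 382 CPM). Of 6 mesenchymal markers, all had a mean above 1 CPM in Hs746T cells and 4 in each other line. VIM (vimentin) held 1398 to 1962 CPM in Hs746T, 175 to 1087 in MKN1, 1.63 to 15.1 in MKN7 and 2.48 to 14.3 in NCI-N87 cells. In Hs746T libraries the mesenchymal markers summed to 2371 to 3220 CPM and the epithelial ones to 742 to 1017 CPM. In each other line the epithelial sum was the higher. The leukocyte markers PTPRC and CD3E stayed under 1 CPM and CD68 was listed at 0 in every library, while the endothelial marker PECAM1 reached 283 CPM in Hs746T cells. Some markers were themselves regulated in the comparisons described here, and their part in these results was not tested. After 24 h of afatinib KRT18 (log2FC -1.87 ± 0.17), KRT8 (-1.37 ± 0.17) and VWF (1.45 ± 0.22) were called in NCI-N87 cells, and SPARC (1.16 ± 0.13) and PTPRC (1.55 ± 0.62, from 0.115 to 0.371 CPM) in MKN7 cells. CDH1 (-1.35 ± 0.35) and VIM (1.73 ± 0.21) were called with EGF at 24 h in MKN1 cells, and CDH1 (1.01 ± 0.31) with cetuximab at 24 h. CDH1 lost its call with EGF without replicate 1, and CDH1 with cetuximab and PTPRC lost theirs whichever replicate was left out. In NCI-N87 cells the 8 libraries with replicate number 1 stood apart in TGM2. Their TGM2 level was 1.88 to 4.25 times that of number 2 and 3.12 to 6.21 times that of number 3 in the same condition. In these libraries 127 of 19078 genes tested, with TGM2 among them, were over 1.5 times as high as in both other numbers in every condition. The mesenchymal marker VIM had means of 11.3, 3.14 and 3.17 CPM for numbers 1, 2 and 3 in untreated NCI-N87 cells. The other mesenchymal markers are not given by number here. For TGM1 the ratio of number 1 was 0.97 to 1.33 against number 2 and 0.811 to 1.04 against number 3. Genes over 1.5 times as high in number 1 as in both others in every condition also numbered 230 of 18667 in Hs746T cells (14 conditions). In MKN7 cells (8 conditions) they numbered 34 of 18483. Neither TGM1 nor TGM2 was among them in these lines. In MKN1 cells number 3 had the most, 12 of 19815. The sample numbers in the labels restart once, and in MKN7 and NCI-N87 cells replicate 1 carries numbers of one run and replicates 2 and 3 those of the other. Each NCI-N87 result for TGM2 is therefore also given by replicate number. In cultures, fewer cells that express a gene and less RNA per cell cannot be told apart.

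TGM2 differed widely between the cell lines. In untreated cells of both time points it ranged from 1787 to 2823 CPM in MKN7, from 256 to 378 CPM in Hs746T, from 55.8 to 115 CPM in MKN1 and from 9.06 to 66.4 CPM in NCI-N87 cells. The ranges of MKN7, Hs746T and MKN1 cells did not overlap. Those of MKN1 and NCI-N87 cells met only through the libraries of NCI-N87 replicate 1. By its mean in untreated cells TGM2 ranked 20 among 28321 genes with counts in MKN7 cells, 496 in Hs746T, 2815 in MKN1 and 6478 in NCI-N87 cells. Of the MKN7 libraries treated with afatinib for 24 h, alone or with trastuzumab, all lay under every Hs746T library. TGM2 was above the floor in all 132 libraries.

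**Figure D1:**
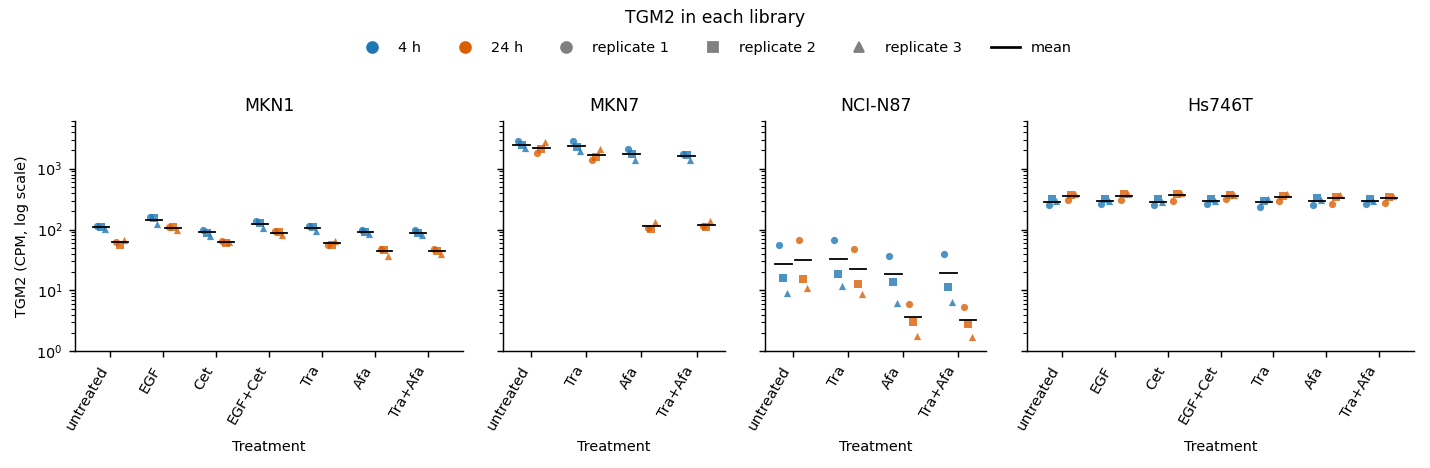
TGM2 in CPM (log scale) in each library, by cell line, treatment (Cet cetuximab, Tra trastuzumab, Afa afatinib) and time, with symbols for the replicate number and a line at the mean of 3. The MKN7 libraries after 24 h of afatinib lie between 104 and 138 CPM, where the untreated ones lie between 1787 and 2766 CPM, and the Hs746T libraries form a flat band between 239 and 406 CPM.

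In MKN7 cells TGM2 was lower after afatinib treatment, slightly at 4 h and strongly at 24 h. At 4 h the untreated libraries held 2823, 2469 and 2168 CPM and the afatinib libraries 2101, 1737 and 1377 CPM. The groups did not overlap, and the log2FC fitted by edgeR was -0.59 ± 0.19 (SE). At 24 h the untreated libraries held 1787, 2072 and 2766 CPM and the afatinib libraries 108, 104 and 135 CPM. That is a log2FC of -4.37 ± 0.22, or a 20.7-fold lower level, and it ranked 2 from the lowest of 18483 genes tested. By mean level, TGM2 took rank 1938 among all genes in these libraries. The criteria for a regulated gene were a false discovery rate below 0.05 and an absolute log2FC above 1. TGM1 and TGM2 both met them in MKN7 cells after 24 h of afatinib, as did 13.5% of the genes tested. At 4 h neither did, against 3.40% of the genes tested. For TGM1 and TGM2, here and below, the criteria describe and do not test, since both were chosen on their measured values.

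Trastuzumab with afatinib gave levels close to afatinib alone. After 24 h of trastuzumab + afatinib, the MKN7 libraries held 113, 111 and 138 CPM of TGM2, and after trastuzumab alone they held 1377, 1575 and 2094 CPM. The log2FC between these groups was -3.91 ± 0.21. The trastuzumab libraries overlapped the untreated ones, but each of them lay under the untreated library of its replicate number, by log2 ratios of -0.38, -0.40 and -0.40. At 4 h trastuzumab and untreated libraries overlapped (log2FC -0.04 ± 0.19), and trastuzumab + afatinib (1716, 1701 and 1412 CPM) was lower than trastuzumab (2878, 2277 and 1983 CPM) by a log2FC of -0.65 ± 0.19.

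In NCI-N87 cells TGM2 was far below its MKN7 level and was also lower after 24 h of afatinib. The untreated libraries at 24 h held 66.4, 15.6 and 11.1 CPM and the afatinib libraries 6.06, 3.03 and 1.76 CPM. Every afatinib library lay under every untreated one. The log2FC was -3.37 ± 0.97, and a block for the replicate number gave -3.18 ± 0.18. Within replicate numbers 1, 2 and 3 the log2 ratios of CPM were -3.45, -2.37 and -2.66, and without replicate 1 the fitted log2FC was -2.69. TGM2 met the criteria in this comparison and TGM1 did not, against 29.6% of 19078 genes tested. At 4 h the untreated libraries held 55.6, 15.9 and 9.06 CPM and the afatinib libraries 36.3, 13.5 and 6.22 CPM. These groups overlapped, while each replicate number was lower after afatinib, by log2 ratios of -0.61, -0.24 and -0.54, and the fitted log2FC was -0.57 ± 0.86, or -0.53 ± 0.16 with the block. Of the genes tested at 4 h, 3.24% were regulated, and neither member was. After trastuzumab + afatinib for 24 h the libraries held 5.27, 2.80 and 1.69 CPM, against 47.4, 12.7 and 8.67 CPM after trastuzumab (log2FC -3.08 ± 0.97). Within numbers 1, 2 and 3 the log2 ratios were -3.17, -2.18 and -2.36. Trastuzumab libraries overlapped the untreated ones at either time. With trastuzumab each replicate number was lower at 24 h (log2 ratios -0.49, -0.30 and -0.36, log2FC -0.47 ± 0.86). At 4 h each was higher (0.27, 0.22 and 0.37, log2FC 0.37 ± 0.85). Whether the sample number run or another property of the replicate 1 libraries has a part in their TGM2 level was not tested.

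**Figure D2:**
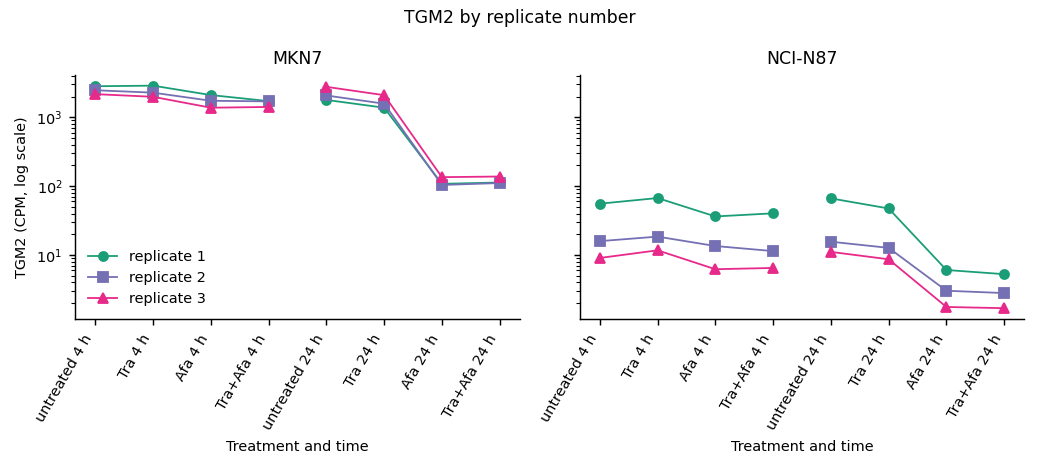
TGM2 in CPM (log scale) in MKN7 and NCI-N87 cells by treatment and time, with lines that join the libraries of one replicate number within a time point. In NCI-N87 cells the 3 numbers run one above the other in all 8 conditions, with number 1 highest, and all of them are lower after 24 h of afatinib.

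In MKN1 cells TGM2 was higher with EGF and lower with afatinib. Untreated MKN1 cells held 115, 110 and 101 CPM at 4 h and 63.6, 55.8 and 67.7 CPM at 24 h. The time points did not overlap (log2FC of 24 h against 4 h -0.97 ± 0.14). EGF gave 158, 154 and 124 CPM at 4 h (log2FC 0.53 ± 0.13) and 111, 110 and 99.6 CPM at 24 h (0.98 ± 0.14), in both cases above every untreated library. With scaling by library size alone the latter was 0.78. EGF + cetuximab gave intermediate levels, with 136, 128 and 105 CPM at 4 h and 93.2, 89.7 and 80.5 CPM at 24 h. Against EGF alone the log2FC was -0.30 ± 0.13 at 4 h, where the groups overlapped, and -0.37 ± 0.13 at 24 h, where they did not. Cetuximab alone gave 100, 88.6 and 79.7 CPM at 4 h (-0.35 ± 0.13, no overlap) and 64.3, 59.5 and 62.2 CPM at 24 h (-0.09 ± 0.14, overlap). Afatinib gave 99.6, 92.0 and 83.5 CPM at 4 h (-0.34 ± 0.13) and 48.4, 47.0 and 37.2 CPM at 24 h (-0.58 ± 0.14), under every untreated library at either time. At 24 h the latter was -0.36 without replicate 3. Trastuzumab libraries overlapped the untreated ones at 4 h (log2FC -0.05 ± 0.13) and at 24 h (-0.06 ± 0.14).

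Neither TGM1 nor TGM2 met the criteria in any MKN1 comparison with EGF, cetuximab or afatinib. The share of all 19815 genes tested that met them was 1.48% after EGF at 4 h and 8.36% at 24 h. It was 0.333% and 1.33% after cetuximab and 0.681% and 4.19% after afatinib at 4 h and 24 h. For TGM2 after 24 h of EGF the criteria were met in 2 of 9 alternative analyses, its log2FC being close to the limit of 1. With the replicate number as a block, which the deviations of same-numbered libraries called for, 110 in place of 66 genes were regulated after cetuximab at 4 h. The block gave 402 in place of 264 genes at 24 h, and 205 in place of 135 genes after afatinib at 4 h.

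In Hs746T cells TGM2 stayed within a narrow band under every treatment. It ranged from 239 to 406 CPM over 42 libraries, and after afatinib the libraries held 257, 324 and 305 CPM at 4 h and 260, 338 and 375 CPM at 24 h, against 256, 314 and 292 CPM and 305, 373 and 378 CPM in untreated cells. The groups overlapped at both times, with a log2FC of 0.09 ± 0.15 at 4 h and -0.12 ± 0.15 at 24 h. With a block for the replicate number these were 0.08 ± 0.07 and -0.13 ± 0.07. Each replicate number was higher at 4 h (log2 ratios 0.01, 0.04 and 0.06) and lower at 24 h (-0.23, -0.14 and -0.01). EGF gave 262, 315 and 297 CPM at 4 h and 311, 381 and 380 CPM at 24 h (log2FC 0.07 ± 0.15 and 0.02 ± 0.15). edgeR called 0% of 18667 genes regulated after afatinib at 4 h and 0% at 24 h in this line, so that neither member was called. At an unadjusted p below 0.05 it listed 1371 genes at 4 h and 330 at 24 h, and DESeq2 called 0 at either time. Untreated cells held more TGM2 at 24 h than at 4 h in each replicate number, with a log2FC of 0.29 ± 0.15 and overlapping groups.

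TGM1 was a gene of low level in all lines, highest in MKN7 cells. In untreated cells it ranged from 8.45 to 22.2 CPM in MKN7, from 3.37 to 5.11 CPM in NCI-N87, from 3.11 to 4.76 CPM in MKN1 and from 2.51 to 3.17 CPM in Hs746T cells. The range of MKN7 cells stood clear of the others, and the ranges of NCI-N87 and MKN1 cells overlapped, as did those of MKN1 and Hs746T cells. By mean level it ranked 8228 of 28321 genes in MKN7 cells and between 10560 and 11249 in the other lines.

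**Figure D3:**
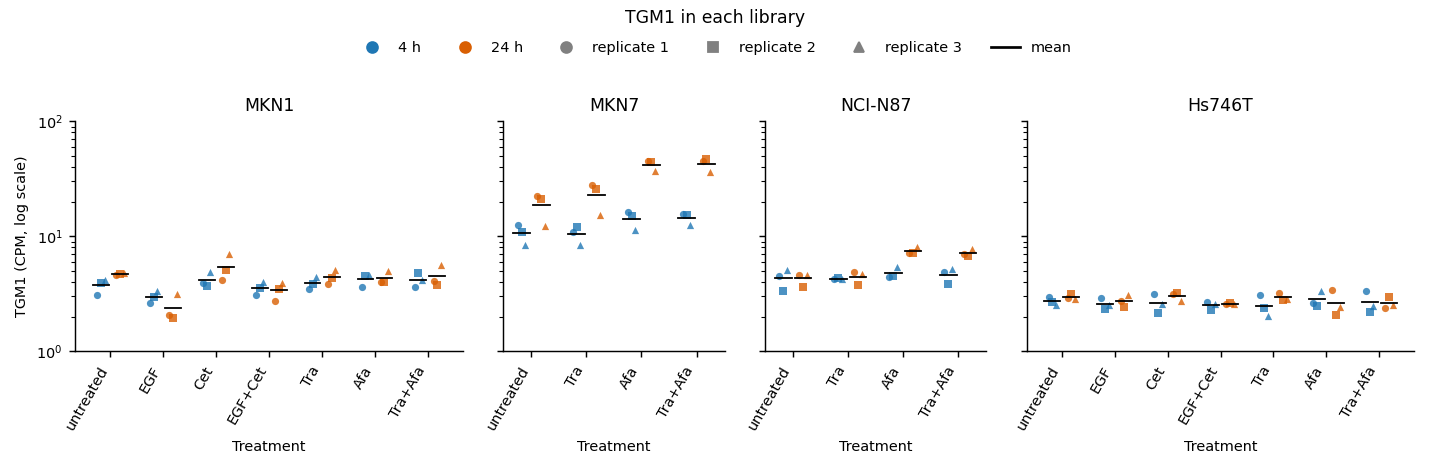
TGM1 in CPM (log scale) in each library, by cell line, treatment and time, with symbols for the replicate number and a line at the mean of 3. The MKN7 libraries after 24 h of afatinib, with or without trastuzumab, lie between 36.4 and 46.9 CPM, above all others.

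With afatinib TGM1 was higher in MKN7 and NCI-N87 cells. In MKN7 cells the untreated libraries held 12.5, 11 and 8.45 CPM at 4 h and 22.2, 21.2 and 12.4 CPM at 24 h. Afatinib gave 16.4, 15 and 11.3 CPM at 4 h (log2FC 0.34 ± 0.22, or 0.34 ± 0.10 with the block). There the groups overlapped and each replicate number was higher. At 24 h it gave 45.4, 44.2 and 36.9 CPM, all above the untreated libraries (log2FC 1.07 ± 0.22, or 1.10 ± 0.09 with the block). TGM1 ranked 1856 from the highest of 18483 genes tested there. Without replicate 3, whose untreated library had the lowest TGM1 level of this group, the log2FC at 24 h was 0.94, under the limit of the criteria. After trastuzumab + afatinib the libraries held 45.4, 46.9 and 36.4 CPM at 24 h, against 28.1, 25.6 and 15.4 CPM after trastuzumab (0.79 ± 0.21). Each trastuzumab library at 24 h was above the untreated library of its number, while the groups overlapped (0.31 ± 0.21). In NCI-N87 cells the untreated libraries held 4.64, 3.6 and 4.65 CPM at 24 h and the afatinib libraries 7.22, 7.11 and 8.09 CPM. These groups did not overlap (0.54 ± 0.17, or 0.54 ± 0.11 with the block). TGM1 ranked only 5934 from the highest of 19078 genes tested, of which 11930 had an adjusted p below 0.05 in edgeR's test. With scaling by library size alone, which shifted the median gene of this comparison by 0.26, the difference was 0.80. At 4 h the NCI-N87 groups overlapped (0.08 ± 0.17).

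In MKN1 cells TGM1 was lower with EGF at 24 h. The untreated libraries held 4.60, 4.73 and 4.76 CPM and the EGF libraries 2.07, 1.93 and 3.13 CPM, a log2FC of -0.79 ± 0.18 without overlap. Library size alone shifted the median gene of this comparison by -0.20. EGF + cetuximab gave 2.73, 3.49 and 3.91 CPM, each above the EGF library of its number (0.43 ± 0.18 against EGF) and all under the untreated libraries. At 4 h each EGF library was under its untreated counterpart and the groups overlapped (-0.22 ± 0.18). After cetuximab or afatinib alone the TGM1 groups overlapped untreated cells at either time. In Hs746T cells TGM1 ranged from 2.03 to 3.40 CPM over 42 libraries, and after afatinib it overlapped untreated cells at 4 h (0.09 ± 0.16) and 24 h (-0.19 ± 0.16).

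**Figure D4:**
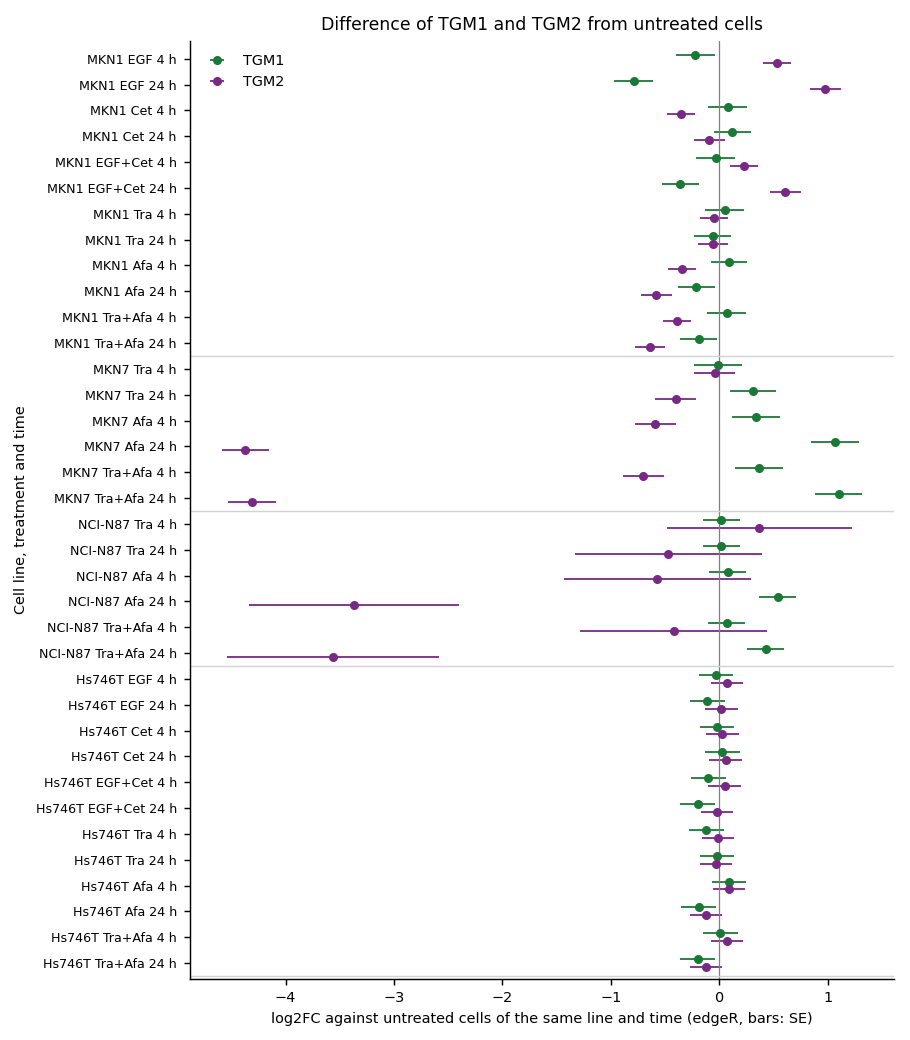
log2FC of TGM1 (green) and TGM2 (purple) against untreated cells of the same line and time, fitted by edgeR, with bars for the SE. After 24 h of afatinib the values are -4.37 and 1.07 in MKN7 cells and -3.37 and 0.54 in NCI-N87 cells for TGM2 and TGM1, and after 24 h of EGF they are 0.98 and -0.79 in MKN1 cells.

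The balance of the 2 genes was compared per length, as the CPM per kb of exon of TGM2 over that of TGM1 in the same library. In MKN7 cells the ratio of levels was 37.5, 45.4 and 104 in untreated libraries at 24 h and 1.11, 1.10 and 1.70 after afatinib. In NCI-N87 cells it was 6.65, 2.02 and 1.11 in untreated libraries and 0.39, 0.198 and 0.101 after 24 h of afatinib. TGM1 was then the higher of the 2 in each replicate. At 4 h the ratio was 5.75, 2.19 and 0.825 in untreated and 3.84, 1.38 and 0.534 in afatinib libraries, so that replicate 3 was under 1 in both. In MKN1 cells it was 5.48 to 6.62 in untreated libraries at 24 h, 14.8 to 26.5 with EGF and 3.47 to 5.64 with afatinib, and the range with EGF overlapped neither of the others. In Hs746T cells it was 48.7 to 61.7 in untreated libraries at 24 h and 35.5 to 76.2 with afatinib.

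The other 7 genes of the family were near the floor or low. TGM3, the epidermal form, reached 1.16 CPM in MKN1 cells, and TGM4, the prostate form, reached 2.34 CPM in Hs746T cells. TGM6 and TGM7 were at or under 3 counts in most libraries, and TGM7 in all 24 libraries of MKN7 cells. EPB42, the member without a catalytic site that serves the red cell membrane, had its highest level of 0.737 CPM in MKN1 cells. TGM5 rose after 24 h of afatinib in NCI-N87 cells, from 0.406, 0.147 and 0.085 CPM to 2.44, 1.77 and 0.972 CPM (log2FC 2.71 ± 0.63, adjusted p = 0.000782, edgeR). It also rose in MKN1 cells, from 0.132, 0.0872 and 0.0447 CPM, near the level of 3 counts, to 0.472, 0.284 and 0.755 CPM (2.34 ± 0.55, adjusted p = 0.00193, and 0.164 without replicate 3). F13A1, the catalytic subunit of coagulation factor XIII, fell in NCI-N87 cells from 0.483, 0.527 and 0.382 CPM to 0.166, 0.105 and 0.0207 CPM (-2.49 ± 0.56, adjusted p = 0.000566). In MKN7 cells 1 of the 7 genes, TGM4, was abundant enough to be tested, and its log2FC at 24 h was 0.48 ± 0.31 (adjusted p = 0.201).

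The proteins that transglutaminases join into the cornified envelope, with enzymes and lipid transporters of that structure, were taken as a list of 24 genes. After 24 h of afatinib in MKN7 cells 3 of 16 tested genes rose and 3 fell, and the median log2FC was 0.06 against 0.04 for all genes. Over all genes 13.5% were called in this comparison, 1901 higher and 601 lower. Values after ± are the SE for a log2FC and the SD of 3 libraries for a CPM, and adjusted p-values come from edgeR's quasi-likelihood test over all genes. Those that rose were S100A11 (1.81 ± 0.22, adjusted p = 1.08e-06), IVL (involucrin, 1.49 ± 0.34, adjusted p = 0.000985) and PPL (periplakin, 1.33 ± 0.24, adjusted p = 8.25e-05). PPL went from 155 ± 56.2 to 420 ± 54.9 CPM (SD, n = 3), and IVL from 1.75 ± 0.996 to 5.31 ± 1.44 CPM. S100A11 was low, and went from 0.937 ± 0.269 to 3.58 ± 0.243 CPM. Those that fell were SPRR1B (-3.20 ± 0.71) and SPRR1A (-2.65 ± 0.60), small proline-rich envelope proteins, and SERPINB2 (a protease inhibitor, -2.77 ± 0.60). SPRR1B held 1.28, 1.71 and 9.24 CPM in the untreated libraries, with replicate 3 far highest, and 0.366, 0.379 and 0.704 CPM after afatinib. The afatinib libraries held 0.0407, 0.0516 and 0.0391 CPM of SPRR1A, near or under the floor, so that its fitted log2FC depends on the prior count as well. SERPINB2 had an adjusted p of 0.0638 without replicate 3. In NCI-N87 cells 29.6% of all genes were called, 61.2% of them higher (77% with library size alone), and of the envelope list's 16 tested genes 0 rose and 4 fell, namely SPRR3 (-1.82 ± 0.29, adjusted p = 9.87e-06), S100A10 (-1.43 ± 0.22, adjusted p = 9.95e-06), PI3 (elafin, -1.41 ± 0.42, adjusted p = 0.00557) and SPRR1B (-1.07 ± 0.32, adjusted p = 0.00658). PI3 lost its call without replicate 3 (adjusted p = 0.0525). SPRR1B lost it without replicate 1 or 2 (adjusted p 0.118 and 0.0771) and with library size alone, where its log2FC was -0.81, and it came to the limit of the criteria without a filter. IVL was also high in the NCI-N87 libraries with number 1, with means of 58.7, 29 and 19.2 CPM for numbers 1, 2 and 3 in untreated cells. So were some genes of the other lists, such as VIM (11.3, 3.14 and 3.17 CPM) and SDC2 (1.08, 0.256 and 0.103 CPM). Others were not, such as EVPL (304, 330 and 298 CPM) and S100A10 (437, 458 and 492 CPM).

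In MKN1 cells 4 of 15 tested envelope genes rose and 0 fell with EGF at 24 h, where 8.36% of all genes were called. They were SERPINB2 (3.83 ± 0.32, adjusted p = 8.36e-11), SPRR1B (3.20 ± 0.80, adjusted p = 0.00201), SPRR3 (2.60 ± 0.77, adjusted p = 0.00839) and PI3 (1.28 ± 0.24, adjusted p = 7.69e-05). PI3 went from 7.28 ± 1.16 to 15.5 ± 3.42 CPM, while after EGF SERPINB2 had 1.23 ± 0.17, SPRR3 0.67 ± 0.308 and SPRR1B 0.35 ± 0.0858 CPM. The untreated libraries held 0.0757, 0 and 0.0447 CPM of SPRR1B, near or under the floor, so that its fitted log2FC depends on the prior count and is no bound. SPRR3 had an adjusted p of 0.107 without replicate 2 and 0.0767 without replicate 3. SERPINB2 rose at 4 h of EGF (3.26 ± 0.23) and fell at 4 h of afatinib (-1.38 ± 0.29, and adjusted p = 0.0928 without replicate 3). CASP14, a protease of cornification, rose at 24 h of afatinib (2.62 ± 0.34) and of cetuximab (1.73 ± 0.35). It was low, with means of 0.262 CPM in untreated cells, 1.74 CPM after afatinib and 0.914 CPM after cetuximab. With cetuximab its adjusted p was 0.0576 without replicate 1 and 0.0717 without replicate 3. ABCA12, a lipid transporter, rose at 24 h of afatinib from 0.486 to 1.13 CPM (1.11 ± 0.33, adjusted p = 0.0116). Its adjusted p was 0.0529 to 0.0659 when a replicate was left out.

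Binding partners and substrates of TGM2 made up a list of 19 genes of cell adhesion, matrix and signalling. In MKN7 cells after 24 h 2 of 16 tested genes rose and 0 fell, against 13.5% of all genes called. These were the matrix proteins NID1 (nidogen, 2.62 ± 0.48, adjusted p = 0.000117), at 1.52 ± 0.242 CPM after afatinib, and FBN1 (fibrillin, 2.10 ± 0.41, adjusted p = 0.000203), which went from 12.3 ± 6.34 to 57.0 ± 23.4 CPM. In NCI-N87 cells 2 of 17 rose and 4 fell, against 29.6% of all genes called, with a list median of -0.36 against 0.03 for all genes. TGFB1, a growth factor whose latent form TGM2 helps to store in the matrix, fell from 110 ± 11.3 to 33.2 ± 4.91 CPM (-1.99 ± 0.18, adjusted p = 2.59e-09). FN1 (fibronectin) fell from 243 ± 20.5 to 114 ± 21.8 CPM (-1.35 ± 0.18, adjusted p = 1.25e-06), and TXN (thioredoxin, which reduces a regulatory disulfide of TGM2) fell as well (-1.46 ± 0.18). ITGB1, the integrin chain that binds TGM2 at the cell surface, fell too (-1.05 ± 0.08). ITGB1 lost its call with library size alone (log2FC -0.78), without a filter (-0.98) and with at least 10 counts in every library (-0.93). LRP1, the receptor that takes up TGM2 from the surface, rose from 108 ± 12.5 to 415 ± 51.7 CPM (1.68 ± 0.17, adjusted p = 1.86e-08), and PLCD1, a phospholipase C, rose (1.27 ± 0.12). In MKN1 cells VIM (vimentin) rose with EGF at 24 h from 329 ± 8.59 to 943 ± 136 CPM (1.73 ± 0.21, adjusted p = 1.24e-07), and ADGRG1, an adhesion receptor, rose (1.00 ± 0.21). The log2FC of ADGRG1 was 0.81 with library size alone, 0.99 with at least 10 counts in every library and 0.87 without replicate 2, under the limit of the criteria. SPP1 (osteopontin) rose after afatinib in MKN1 cells (1.49 ± 0.19, adjusted p = 9.41e-07).

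The retinoid list held 18 genes that make, bind, sense or degrade retinoic acid or answer to it. RARRES3, a retinoic acid responder, rose after 24 h of afatinib in MKN7 (1.56 ± 0.24, adjusted p = 1.96e-05), NCI-N87 (2.32 ± 0.25, adjusted p = 5.99e-08) and MKN1 cells (1.48 ± 0.19, adjusted p = 1.26e-06) and fell with EGF in MKN1 cells (-1.56 ± 0.21, adjusted p = 4.67e-07). In MKN7 cells 3 of 16 tested genes rose and 0 fell, against 13.5% of all genes called, most of them higher. The others were RARB, a retinoic acid receptor (1.62 ± 0.50, adjusted p = 0.00963, and 0.0998 without replicate 2), and ALDH1A3, a retinaldehyde dehydrogenase (1.27 ± 0.13, adjusted p = 1e-07). RARB was low, with means of 0.41 CPM in untreated and 1.37 CPM in afatinib libraries. In NCI-N87 cells 2 of 16 rose and 1 fell, against 29.6% of all genes called. ALDH1A1, which also makes retinoic acid, rose from 855 ± 29.7 to 4019 ± 413 CPM (1.98 ± 0.15, adjusted p = 1.91e-10). CYP26B1, which degrades retinoic acid, fell (-1.59 ± 0.36), with overlapping groups. In MKN1 cells with EGF at 24 h 8.36% of all genes were called, of which 25.3% were higher (11.8% with library size alone), so that most calls over all genes were lower too. Of the retinoid genes 5 of 16 fell and 0 rose, among them RARRES1 (235 ± 37.2 to 25.9 ± 8.45 CPM, -2.99 ± 0.45), DHRS3 (-1.83 ± 0.15), CYP26A1 (-1.77 ± 0.11) and RARB (-1.68 ± 0.53, adjusted p = 0.0138, and 0.295 without replicate 1). RARB was low there, with a mean of 0.629 CPM in untreated cells. Its EGF libraries held 0.078, 0.322 and 0.112 CPM, in part near the floor. CYP26B1 rose at 4 h of EGF from 44.4 ± 4.74 to 149 ± 15.7 CPM (1.85 ± 0.15, adjusted p = 2.68e-10) and fell at 4 h of afatinib (-1.25 ± 0.15). At 24 h of afatinib in MKN1 cells 2 of 16 rose and 1 fell, against 4.19% of all genes called, and without replicate 3 the log2FC of CYP26B1 (-1.15 ± 0.16) was -0.90 and that of RARRES1 (1.31 ± 0.42) was 0.99. RARRES1 had an adjusted p of 0.0954 without replicate 1 and 0.0532 without replicate 2.

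The remaining comparisons were read over the 4 lists together. Without TGM1 and TGM2, 2 of 49 tested genes of the 4 lists were regulated in MKN7 cells after 4 h of afatinib, against 3.40% of all genes. They were S100A11 (1.39 ± 0.27, from 0.397 to 1.11 CPM) and SERPINB2 (-1.72 ± 0.53). SERPINB2 had an adjusted p of 0.078 without replicate 1 and 0.225 without replicate 3. In NCI-N87 cells after 4 h edgeR called 0 of 53, against 3.24% of all genes, with 15 at an unadjusted p below 0.05 and 0 called by DESeq2. In Hs746T cells it called 0 of 49 at 4 h and at 24 h, with 3 and 5 at an unadjusted p below 0.05 and 0 called by DESeq2, where 0% of all genes were called. After cetuximab in MKN1 cells edgeR called 0 of 53 at 4 h, with 6 at an unadjusted p below 0.05 and 1 called by DESeq2, and 2 of 53 at 24 h, against 0.333% and 1.33% of all genes. Blocking by replicate number, it called 1 at 4 h and 5 at 24 h. RARRES3 rose at 24 h of cetuximab (1.06 ± 0.19), and its log2FC was 0.78 without replicate 3.

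**Figure D5:**
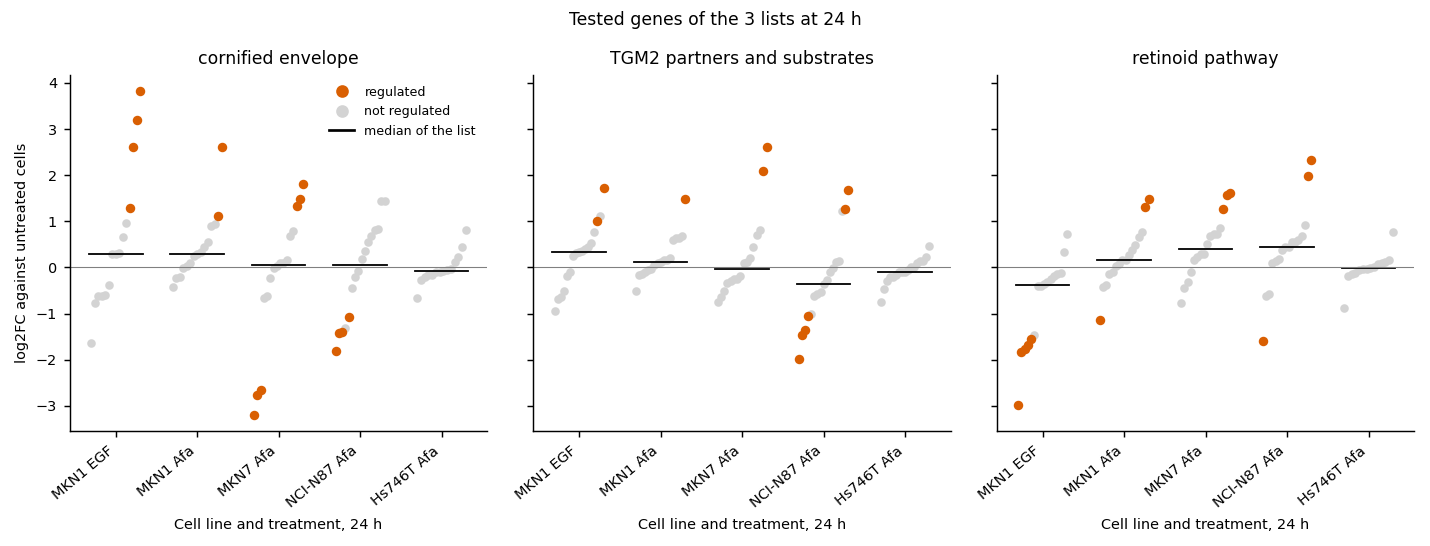
log2FC of each tested gene of the 3 lists against untreated cells at 24 h, for EGF and afatinib in MKN1 cells and afatinib in the other lines. Orange points met the criteria for regulated genes, grey points did not, and black lines mark the list medians. In Hs746T cells no point is orange.

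Of the nearest tested genes on either side, none of those of TGM1 passed the test in MKN7 and NCI-N87 cells after 24 h of afatinib, and both of those of TGM2 were lower with it. TINF2 and RABGGTA, beside TGM1 on chromosome 14, had log2FC values of 0.10 ± 0.09 and 0.00 ± 0.11 in MKN7 and 0.19 ± 0.11 and 0.16 ± 0.09 in NCI-N87 cells after 24 h of afatinib. RPRD1B, which overlaps the 3′ end of TGM2, had values of -0.31 ± 0.06 (adjusted p = 0.000165, edgeR) and -0.58 ± 0.08 (adjusted p = 8.76e-07), within the log2FC limit of the criteria. KIAA1755 lies on the same strand as TGM2, from 38210488 to 38260772 on chromosome 20. In MKN7 cells it fell from 15.8, 21.1 and 16.3 CPM to 2.48, 4.73 and 2.46 CPM (-2.56 ± 0.28, adjusted p = 2.59e-07, edgeR). In NCI-N87 cells it fell from 0.58, 0.653 and 0.297 CPM to 0.0207, 0.021 and 0.0621 CPM (-4.03 ± 0.54, adjusted p = 1.33e-06), with the afatinib libraries at or under the floor. In MKN1 cells it rose with 24 h of EGF from 0.208, 0.196 and 0.223 CPM to 0.604, 0.704 and 0.616 CPM (1.80 ± 0.36, adjusted p = 0.000166). In Hs746T cells it held 12.7, 9.02 and 9.56 CPM in untreated and 12.1, 8.42 and 8.89 CPM in afatinib libraries.

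The genes with the most similar pattern were sought among 11747 genes tested in all lines. Over the means of the 44 conditions the highest Pearson's r with TGM2 were those of EIF6 (0.97), ADAM19 (0.963), DHX35 (0.962), PRMT3 (0.962) and CLNS1A (0.961). With TGM1 they were those of PGRMC2 (0.972), ARHGAP40 (0.965), SPTBN1 (0.964), PIAS1 (0.96) and IKZF3 (0.957). These values rest mainly on differences between the 4 lines, which give many points each. Over the 36 differences between treated and untreated means, which share their untreated libraries, the closest to TGM2 were PGK1 (0.965), DENND1A (0.96), OXNAD1 (0.956), CTSC (0.953) and SVIP (0.949). The closest to TGM1 were MATN2 (0.942), ZDHHC1 (0.933), SLC7A7 (0.932), ACKR3 (0.929) and PRKRIP1 (0.924). Between TGM1 and TGM2, r was 0.218 over condition means and -0.88 over the 36 differences. Without the 2 MKN7 conditions with afatinib for 24 h, it was -0.737 over the other 34 differences. These still hold the NCI-N87 conditions with afatinib for 24 h, and r without those was not computed. TGM1 and TGM2 were chosen on their measured values, and the rank of their r among other genes was not computed either. Over the same 34 differences, r of the 5 named genes was 0.871 to 0.967 with TGM2 and 0.838 to 0.924 with TGM1.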

How the data were processed

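The authors purified mRNA, made directional libraries and sequenced them paired end. They deposited counts per Ensembl gene identifier for each of 132 libraries, without normalization. The submitters' processing notes name Trim Galore, STAR and hg38, and their versions, the counter and the annotation are not given in the sources used here. Identifiers were matched to GENCODE release 29, in which 8404 had no entry (0.0422% of the counts). In 132 pairs of replicates, 0 were identical.

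Levels are CPM scaled by the library total alone. Overlap of groups was read from these CPM, and the share of all genes whose groups did not overlap was not computed. The libraries of one line were fitted together in edgeR 4.0.16 (R 4.3.3) with TMM, filterByExpr (minimum count 10, minimum total 15) and 1 mean per treatment and time. Adjusted p-values are Benjamini-Hochberg values of glmQLFTest over all genes tested. SE is the absolute log2FC over the square root of F. Means of log2 CPM for the likeness of patterns used a prior count of 2 and genes with a mean above 1. TGM1, TGM2 and the gene lists were chosen with earlier results of these data known. Named genes are both members, the family, at most 6 regulated genes per list and comparison, the nearest tested genes and the 5 most alike in pattern. Same-numbered libraries deviated together in all 12 comparisons listed (lowest r 0.13, limit 0.1), with numbers taken from the titles, so that the numbers pair the libraries. The SE and adjusted p-values printed are those of the fit without the block unless said otherwise. The blocked value is given where it changed a count by over 1.5 times and for TGM2 after afatinib in NCI-N87 cells. It is also given for TGM1 after afatinib in MKN7 cells and, at 24 h, in NCI-N87 cells, and for TGM2 after afatinib in Hs746T cells. The block lowered the SE of other member values too, such as TGM1 after 24 h of EGF in MKN1 cells (0.18 to 0.12). It hardly changed that of TGM2 after 24 h of afatinib in MKN7 cells (0.22 to 0.21). Alternatives were DESeq2 1.42.0, only the compared groups, the replicate block, leaving out each replicate, scaling without TMM, no low-count filter, and a stricter one of 10 counts or more in every library. The values by replicate number, the likeness without MKN7 afatinib at 24 h and the count of genes high in one number were chosen after seeing the data. Sequences were read from GENCODE release 29 transcripts. Plots were made in matplotlib 3.10.9 under Python 3.11.15.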

Additional observations from a re-analysis of the deposited data

How the results depend on the processing

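For TGM1 and TGM2, 0 log2FC values that met the criteria changed sign in any alternative. After 24 h of afatinib TGM2 ranged from -4.48 to -4.25 in MKN7 and from -3.54 to -2.69 in NCI-N87 cells over 9 alternatives. It met the criteria in all of them. TGM1 in MKN7 cells ranged from 0.94 to 1.18 and met the criteria in 8. Both genes were chosen on their measured values, so that meeting the criteria is no test of them. The other TGM1 value most open to scaling, that of NCI-N87 cells at 24 h, ranged from 0.49 to 0.80. Library size alone moved some differences by more than the spread between replicates. They were TGM1 in NCI-N87 cells at 24 h after afatinib (0.80) and after trastuzumab + afatinib against trastuzumab (0.70), and TGM1 in untreated MKN1 cells at 24 h against 4 h (0.33). For TGM2 in MKN1 cells they were EGF at 24 h (0.78), trastuzumab + afatinib against trastuzumab at 24 h (-0.43) and untreated cells at 24 h against 4 h (-0.80). Relative to TMM, library size alone shifted the median gene by 0.26 in NCI-N87 and 0.11 in MKN7 cells after 24 h of afatinib and by -0.11 and -0.20 in MKN1 cells after 4 h and 24 h of EGF. Leaving out 1 replicate gave TGM2 in MKN1 cells 0.83 to 1.13 after 24 h of EGF, -0.73 to -0.36 after 24 h of afatinib, -0.72 to -0.42 for trastuzumab + afatinib against trastuzumab at 24 h and -1.10 to -0.86 for 24 h against 4 h. In untreated MKN7 cells it gave TGM2 at 24 h against 4 h -0.54 to 0.03, against -0.23 with all replicates.

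The filter of at least 10 counts in every library, which tests fewer genes, lowered these counts of regulated genes. It gave 194 in place of 293 and 934 in place of 1656 for EGF in MKN1 cells at 4 h and 24 h, 127 in place of 264 for cetuximab at 24 h and 394 in place of 830 for afatinib at 24 h. It gave 412 in place of 629 and 1504 in place of 2502 in MKN7 cells at 4 h and 24 h of afatinib and 3763 in place of 5649 in NCI-N87 cells at 24 h. List genes then numbered 1 and 6 for EGF at 4 h and 24 h, in place of 2 and 11, 1 and 4 for afatinib in MKN1 cells at 4 h and 24 h, in place of 2 and 7, and 7 in place of 11 in MKN7 cells at 24 h. With the replicate block, which pairs the numbers, MKN1 cells gave 110 in place of 66 and 402 in place of 264 for cetuximab at 4 h and 24 h and 205 in place of 135 for afatinib at 4 h. List genes then numbered 1 and 5 for cetuximab at 4 h and 24 h, and DESeq2 gave 1 at 4 h. The block moved no other count by over 1.5 times and changed no call of a named list gene. With only the compared groups, afatinib in MKN1 cells at 4 h gave 89.

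Leaving out 1 replicate gave, over all genes in MKN1 cells, 155 to 286 and 998 to 1980 for EGF at 4 h and 24 h, 38 to 50 and 64 to 265 for cetuximab, and 82 to 101 and 325 to 941 for afatinib, and 401 to 526 in NCI-N87 cells at 4 h of afatinib in place of 619. List genes numbered 0 to 1 and 0 to 4 for cetuximab in MKN1 cells at 4 h and 24 h, 1 to 3 and 3 to 7 for afatinib, 1 to 2 in MKN7 and 0 to 1 in NCI-N87 cells at 4 h. Of 59 calls of named list genes and markers, 40 were kept in every alternative and 0 changed sign. The cause of these moves was not tested, apart from the number of genes or libraries that an alternative leaves. Genes at a few counts, such as TGM5, are limited by depth.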
